A study of Rattus norvegicus with 30 samples.

Results

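The lungs of 5 rats sampled 22 days after they last inhaled copper oxide nanoparticles at 3.3 mg/m3 (day 28) were compared with the lungs of 5 other rats sampled 1 day after the same exposure (day 6). These 10 arrays are those of 30 in the study whose titles give this dose with either day, and all 30367 non-control probes were considered. All rats were adult male Wistar rats of the outbred HsdCpb:WU strain, 8 weeks old on arrival and kept for 2 weeks before exposure. They breathed the particles nose-only on 5 consecutive days, at a concentration given as the equivalent of 6 hours a day. Another 5 rats on day 6 and 5 rats on day 28 inhaled air only (0 mg/m3). They gave the change over the same days without particles, which may also hold a difference in hour of collection. The labels carry the nanoparticle as the treatment of these rats too, but their dose is 0. Each rat was killed once, so a change is a difference between different animals and not a course within one animal. The comparison asks which transcripts differed between the day after a low exposure and 22 days after it, and which of those differences were not seen over the same days in rats that breathed air.

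Copper oxide particles that reach the alveoli dissolve in part, and macrophages of the alveolar surface take up the rest. In a lung that meets such particles, macrophages and epithelial cells release chemokines, small proteins that call monocytes and neutrophils out of the blood, and secrete acute phase and complement proteins that bind iron, microbes and debris. Cells that divide to replace damaged epithelium or to expand resident macrophages switch on genes of DNA replication and mitosis. Dividing and secreting cells also need cholesterol, which they make through the mevalonate pathway. When exposure ends these programmes are switched off at different speeds. A comparison of days can also differ by hour of collection, to which genes of the circadian clock are sensitive.

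The values below are log2 ratios of lung RNA (Cy5) over 1 common reference RNA (Cy3), so that a value of 1 is a doubling of the ratio, and differences between groups carry their standard error (SE) from limma with n = 5 rats per group. A gene was called when its adjusted p was under 0.05 over the 18410 genes tested, and only such genes are said to have risen or fallen. The median Cy5 intensity of the 30 arrays lay between 216 and 432, and 59.5% to 68.4% of their probes were well above background. Log ratios correlated at 0.948 to 0.974 among the low dose arrays of day 6, at 0.931 to 0.982 among those of day 28 and at 0.874 to 0.960 between the days (over probes, which do not count as replicates). The tissue label held: all 13 measured lung markers gave a mean per rat of 5.66 to 6.24 on day 6 and of 5.49 to 6.18 on day 28, with Sftpc, surfactant protein C, at 9.95 ± 0.42 and 10.05 ± 0.44 (SD, n = 5). The low dose rats 47 (day 6) and 52 (day 28) shared slide 2, where 81.9% of the called genes kept their direction, against 99.6%, 99.9% and 99.7% on slides 1, 3 and 4. The genes were called with these same rats, so high shares were in part set in advance and are no replication. Heart muscle genes were highest in low dose rat 49 of day 6 (1.00), in low dose rat 54 of day 28 (0.29) and in air rat 4 of day 6 (3.58), and 0 of 21 such genes were called at the low dose by limma (1 at an unadjusted p under 0.05). In whole lung tissue fewer cells of a type and less RNA per cell cannot be told apart.

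Of 18410 genes, 2191 (11.9%) differed between the days at the low dose, 726 (3.94%) higher and 1465 (7.96%) lower on day 28. Among air rats 541 genes (2.94%) differed, 341 higher and 200 lower. The gap between both counts depended on threshold and fit. By limma 4984 genes at the low dose and 4444 in air had an unadjusted p under 0.05. The median absolute log2 difference was 0.145 and 0.139. With only the arrays of each comparison in the fit, 1542 genes were called at the low dose and 1162 in air. Of the genes called at the low dose, 220 were called in air in the same direction, which is 10.04% of the low dose calls and 40.7% of the air calls, and 9 were called in the opposite direction. The change at the low dose differed from the change in air for 359 genes (1.95%), 302 of them (1.64%) more negative and 57 (0.310%) more positive at the low dose. The 5 rats of day 28 and the 5 of day 6 did not overlap for 1536 genes at the low dose (8.34%) and for 1169 in air (6.35%). The share of low dose calls that were higher on day 28 was 33.1%, and it was 43.7% with median centring, 41.4% with the scanner's processed signals, 45.3% with Cy5 alone and 44.2% in the authors' deposited table of log2 ratios. The shares of higher calls in air and in the difference of changes were 63.0% and 15.9%, and 23.0% and 31.4% with median centring. The low dose count rested on single rats: it was 1225 without rat 48, 1331 without rat 51 and 1209 without rat 54, and it was 3362 without the 2 rats of slide 2. The air count was 2494 without rat 8, 180 to 306 without any other 1 of rats 1, 2, 3, 5, 6, 7, 9 and 10, and 432 without rat 4. On day 28 the low dose group differed from air of the same day in 2 genes by limma (0.0109%), the clock genes Dbp and Nr1d1. On day 6 it differed from air in 1239 genes (6.73%), 917 (4.98%) higher and 322 (1.75%) lower at the low dose. By limma 1097 genes had an unadjusted p under 0.05 on day 28.

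Genes of secreted defence and chemokines were among the largest falls. Lcn2, lipocalin 2, binds bacterial iron carriers and is made by inflamed epithelium. Its log2 ratio was 5.44, 5.39, 6.23, 6.15 and 6.25 in the 5 low dose rats of day 6 and 1.42, 1.09, -0.10, 1.26 and 0.89 in those of day 28. The groups lay far apart, and the lowest rat of day 28 was rat 54. The fall was 31.5-fold (-4.98 ± 0.33 SE, adjusted p = 2.33e-11). In air rats Lcn2 changed by -0.86 ± 0.33 (adjusted p = 0.121), and the difference between both changes was -4.12 ± 0.47 (adjusted p = 3.12e-06). Defb5, a beta-defensin, fell by 15.2-fold (-3.92 ± 0.44, adjusted p = 4.73e-07) and stood at 4.99, 1.52, 5.53, 5.09 and 5.75 on day 6, where rat 48 was lowest, against 0.55, 0.75, 0.39, 0.58 and 0.99 on day 28.

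Of 25 measured acute phase and secreted defence genes 10 fell and none rose at the low dose (median -0.48 against 0.00 over all genes), whereas in air none fell and 3 rose. The change differed between low dose and air for 8 of them. Orm1, an acute phase glycoprotein, had a signal not well above background on any array of day 28 and was at least 7.65-fold lower there in normalized Cy5. Its log2 ratios to the reference, with measured means of 2.69 and 0.00, gave 6.44-fold, less than the bound from Cy5, so the bound holds for the Cy5 scale only. In Orm1 and other genes with a lower bound, that bound compares the bright group's normalized Cy5 with the higher of the dim signal and the lowest signal measured above background on each array. Haptoglobin, Hp, which binds free hemoglobin, fell by 2.73-fold (-1.45 ± 0.18, adjusted p = 3.33e-06), the chitinase-like protein Chi3l1 by 5.81-fold (-2.54 ± 0.29, adjusted p = 8.11e-07) and Bpifb1, an airway secretory protein, by 7.06-fold (-2.82 ± 0.52, adjusted p = 0.000516). The difference from the air change was called for Hp and Chi3l1 but not for Bpifb1. S100a9, a calcium-binding protein of neutrophils and monocytes, ran in opposite directions in the 2 sets of rats. At the low dose it fell from 5.90, 5.69, 6.45, 6.55 and 6.75 to 3.64, 5.07, 3.77, 4.58 and 4.74 (-1.91 ± 0.36, adjusted p = 0.000646), a call lost with the processed signals. In air it rose by 1.33 ± 0.36 (adjusted p = 0.0418), from 3.25, 2.96, 3.37, 2.56 and 2.66 to 4.12, 3.75, 4.65, 4.11 and 4.83. On day 28 the low dose and air values of S100a9 differed by 0.07 ± 0.36 (adjusted p = 0.967). Its partner S100a8 rose in air (1.39 ± 0.29, adjusted p = 0.00726) and stood at -0.47 ± 0.29 at the low dose (adjusted p = 0.306).

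**Figure D1:**
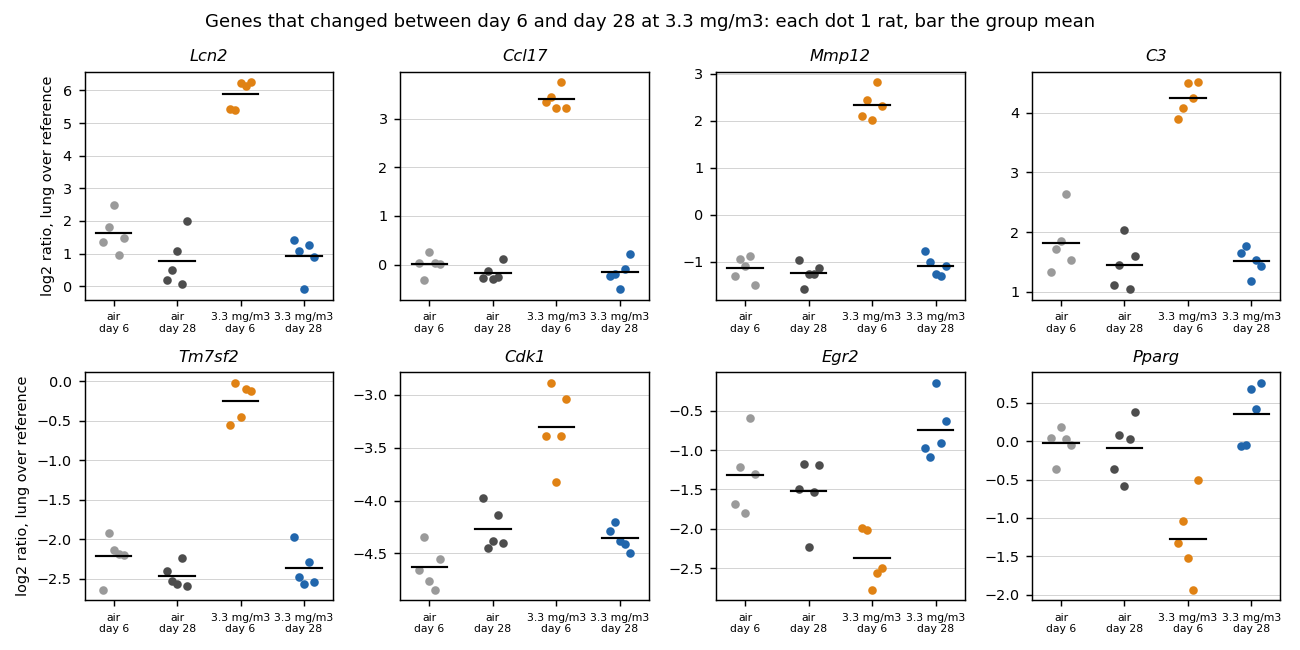
Log2 ratio of lung RNA over the reference for 8 genes in each of 5 rats per group, with the group mean as a bar. For Lcn2, Ccl17, Mmp12, C3, Tm7sf2 and Cdk1 the low dose rats of day 6 (orange) lie above those of day 28 (blue), for Egr2 and Pparg below them.

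Chemokines fell at the low dose and not in air. Of 30 measured chemokine genes 10 fell and 1 rose, with a median of -0.33. In air 1 rose and none fell, and 8 had a change that differed from air. The monocyte attractants Ccl2, Ccl7 and Ccl12 signal through the receptor Ccr2. Ccl2 stood at -0.99, -1.09, -2.20, -0.33 and -1.74 on day 6 and at -4.55, -3.05, -4.98, -4.43 and -4.62 on day 28, with rat 53 the highest of the later day, and fell by 8.33-fold (-3.06 ± 0.42, adjusted p = 1.07e-05). Ccl7 fell by 7.3-fold (-2.87 ± 0.31, adjusted p = 2.92e-07) and Ccl12 by 7.33-fold (-2.87 ± 0.34, adjusted p = 1.05e-06). In air rats these 3 genes changed by 0.16, 0.11 and 0.13, and none was called.

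Ccl17 and Ccl22, the ligands of Ccr4 that attract T cells and are made by macrophages and dendritic cells, fell just as clearly. Ccl17 was at 3.33, 3.45, 3.22, 3.74 and 3.23 on day 6 and at -0.24, -0.18, -0.51, -0.08 and 0.22 on day 28. The 5 rats of day 6 lay close together, and those of day 28 spanned the range of the air rats of that day, which was -0.31 to 0.12. The fall of Ccl17 was 11.7-fold (-3.55 ± 0.15, adjusted p = 1.98e-15) and that of Ccl22 9.31-fold (-3.22 ± 0.15, adjusted p = 4.99e-15). The neutrophil attractants Cxcl1 and Cxcl2 fell by 1.72 and 1.92 on the log2 scale, and the interferon-induced Cxcl10 fell by 1.72 (adjusted p = 3.33e-06, 2.9e-05 and 7.3e-05). Cxcl11 and Cxcl6 were not well above background on any array of day 28, and on day 6 were so on only 3 and 2 of 5 arrays. Their bounds of 1.36-fold and 1.24-fold lower on day 28 thus compare dim signals and are not firm. Cx3cl1, the membrane-bound chemokine of endothelium and nerve cells, was the 1 chemokine that rose (0.55 ± 0.17, adjusted p = 0.0356); it stood at 0.47 ± 0.17 in air (adjusted p = 0.102).

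Of 20 receptors for chemokines and cytokines 6 fell and none rose, and 1 had a change that differed from air. That receptor was Il1r2, a decoy that captures interleukin 1, which fell by 3.76-fold (-1.91 ± 0.15, adjusted p = 8.93e-10; 0.29 ± 0.15 in air). The number of receptors that fell was between 1 and 3 without rat 48, 50, 51, 53 or 54, each left out alone. Of 24 cytokines and growth factors 2 fell and 3 rose, and 1 rose without rat 48, 50 or 55 or with median centring. Over all genes 7.96% fell and 3.94% rose, so the count of this list that fell lies near that share. In air 1 of these genes rose and 1 fell. The low dose change was more positive than that in air for 1 and more negative for 1. Spp1, osteopontin, a matrix and macrophage cytokine, fell by 3.05-fold (-1.61 ± 0.24, adjusted p = 2.63e-05), while Hgf, hepatocyte growth factor, rose by 1.82-fold at the low dose (0.86 ± 0.15, adjusted p = 0.000186) and also rose in air (0.60 ± 0.15, adjusted p = 0.0244). Il1rn, the interleukin 1 receptor antagonist, rose by 0.75 (adjusted p = 0.029), against 0.30 in air (adjusted p = 0.431).

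Among 20 complement genes 7 fell and none rose (median -0.32), and 3 had a change that differed from air; with Cy5 alone 12 fell. C3, the central component, stood at 3.90, 4.09, 4.51, 4.25 and 4.51 on day 6 and 1.65, 1.76, 1.17, 1.53 and 1.43 on day 28, groups without overlap, and fell by 6.7-fold (-2.74 ± 0.20, adjusted p = 9.74e-11). Cfi, the protease that cuts C3b, fell by 3.37-fold (-1.75 ± 0.25, adjusted p = 1.78e-05) and Cfb, of the alternative pathway, by 1.72-fold (adjusted p = 0.00113). Components of the classical pathway also fell, with C1qc at -0.98, C1s at -0.84 and C1r at -0.40.

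Markers of macrophages and monocytes were lower on day 28 in exposed rats. Of 37 measured markers 16 fell and 2 rose (median -0.56), none was called in air by limma (5 lower at an unadjusted p under 0.05), and the change differed from air for 6 that fell and 1 that rose. The mean of the list per rat was 1.05 to 1.63 on day 6 and 0.47 to 0.89 on day 28. Mmp12, the macrophage elastase, was at 2.10, 2.45, 2.02, 2.82 and 2.30 on day 6 and at -0.77, -1.01, -1.26, -1.31 and -1.09 on day 28. All 5 rats of day 28 lay below all 5 of day 6, a fall of 10.8-fold (-3.43 ± 0.17, adjusted p = 1.05e-14; -0.10 ± 0.17 in air). Itgam, the integrin chain CD11b of recruited myeloid cells, fell by 2.38-fold (adjusted p = 2.99e-05). Fabp4 and Fabp5, fatty acid carriers of lipid-laden macrophages, fell by 3.55-fold and 2.48-fold (adjusted p = 9.72e-05 and 0.000776), Trem2 by 1.88-fold (adjusted p = 0.0134) and the scavenger receptor Msr1 by 2.07-fold (adjusted p = 0.00421). For Fabp4 the difference from the air change was not called.

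The 2 macrophage genes that rose were Pparg and Fcgr3a. Pparg encodes a lipid-sensing nuclear receptor that alveolar macrophages need to mature. It was at -1.33, -1.05, -1.53, -1.94 and -0.51 on day 6 and at -0.06, -0.05, 0.68, 0.41 and 0.76 on day 28, without overlap, a rise of 3.07-fold (1.62 ± 0.20, adjusted p = 3.17e-06). In air it changed by -0.07 ± 0.20 (adjusted p = 0.878), and the difference was 1.68 ± 0.29 (adjusted p = 0.000769). Clec7a, the beta-glucan receptor dectin-1 of myeloid cells, rose by 2.62-fold (1.39 ± 0.31, adjusted p = 0.00322) and Pla2g2d, a secreted phospholipase of lymphoid and myeloid tissue, by 2.63-fold (1.39 ± 0.24, adjusted p = 0.000244). The difference from air held for Clec7a at 1.67 ± 0.43 (adjusted p = 0.0361), a call that ended without any 1 of 12 rats, among them rats 47, 49, 50, 54, 55 and 56 of the low dose. Serpinb10, a protease inhibitor of hematopoietic cells, was at -1.23, 0.40, -2.18, -1.98 and 0.09 on day 6 and at 1.32, 0.72, 0.62, 1.17 and 1.68 on day 28. Its spread on day 6 was wide, and the rise was 4.23-fold (2.08 ± 0.35, adjusted p = 0.000197; -0.24 ± 0.35 in air).

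Markers of other leukocytes were called in smaller numbers, and the difference between these lists was not tested. Of 14 neutrophil markers 3 fell (Il1r2, S100a9 and Cxcr2; 1 with the processed signals) and none rose, and in air S100a8 and S100a9 rose. Of 23 T cell markers 4 fell, led by the costimulatory receptor Icos (-0.83 ± 0.16, adjusted p = 0.000877) with Cd3g at -0.77, and none had a change that differed from air. Without rat 52, or without rats 47 and 52, 7 T cell markers fell, as with Cy5 alone, 8 fell with the processed signals and 2 with median centring. Of 25 genes of antigen presentation 5 fell and 1 rose, and 3 fell without rat 48, 50, 51 or 54, with median centring or with the processed signals, whereas 9 fell with Cy5 alone. Clec9a, a receptor of cross-presenting dendritic cells, fell by 2.05-fold (-1.04 ± 0.14, adjusted p = 8.35e-06; -0.12 ± 0.14 in air), and the class II loading gene RT1-DMa by 1.66-fold (adjusted p = 0.000194). Derl3, a protein quality gene of plasma cells, was the only 1 of 17 B and plasma cell markers called and fell by 1.02 (adjusted p = 1.66e-05), with a second probe at -0.43 (adjusted p = 0.0560 over all probes). Of 15 NK cell and 16 mast cell and eosinophil markers none was called by limma, with 2 lower and 7 higher at an unadjusted p under 0.05. With only the low dose arrays in the fit 4 of the mast cell and eosinophil markers were called higher, and 3 were in the fit of Cy5 alone or of the authors' deposited log2 ratios.

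**Figure D2:**
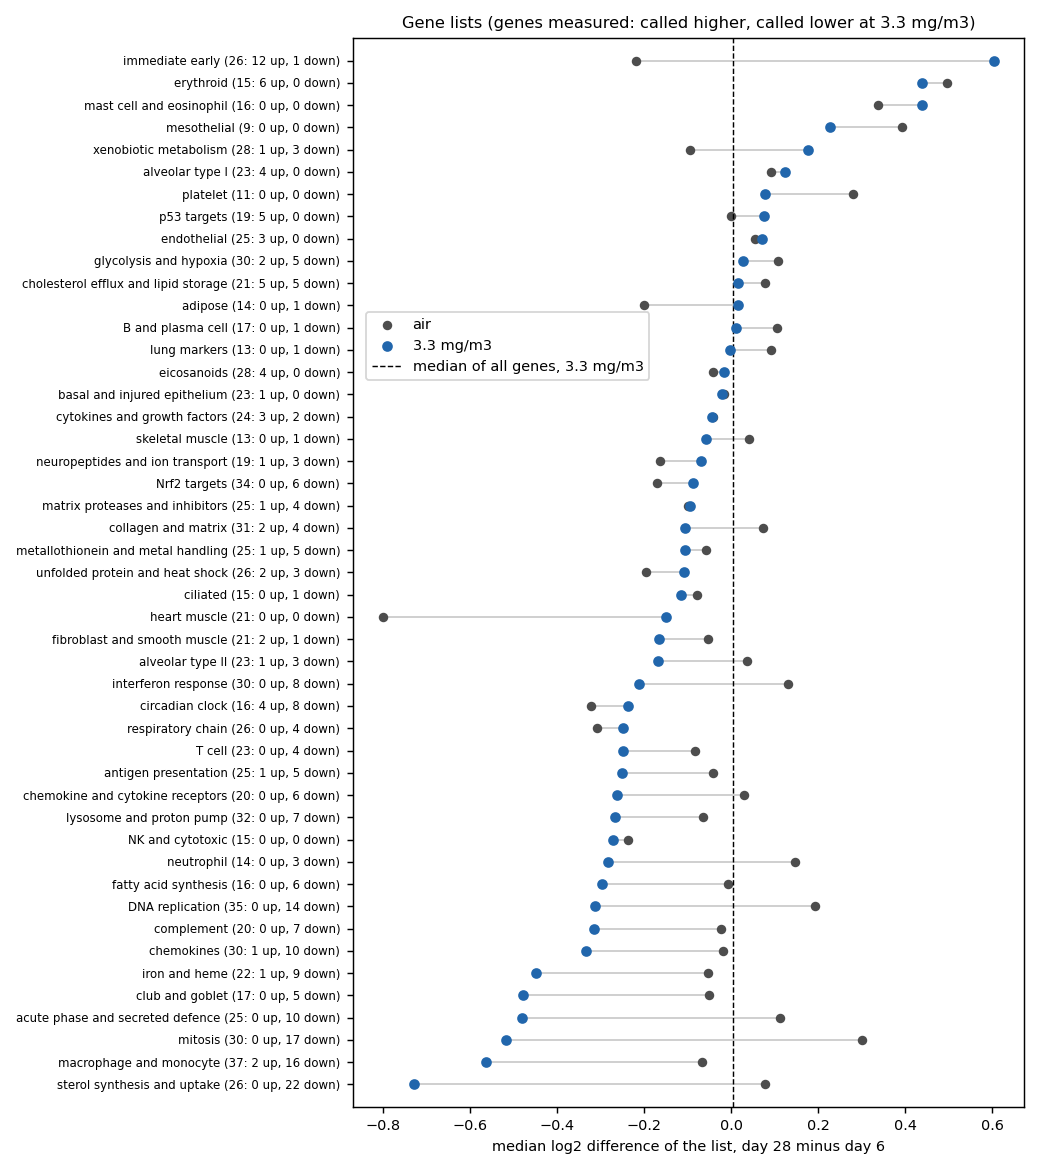
Median log2 difference between day 28 and day 6 of each gene list in low dose rats (blue) and air rats (grey), with the number of measured genes and of low dose calls beside each name. Sterol synthesis (-0.73), macrophage (-0.56) and mitosis genes (-0.52) lie lowest at the low dose and immediate early genes (0.60) highest.

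Sterol synthesis was the list with the largest share of genes that fell. Of 26 measured genes of cholesterol synthesis and uptake 22 fell and none rose at the low dose (median -0.73). In air 1 rose and 1 fell (median 0.08), and 17 had a change that differed from air. The mean of the list per rat ran from -0.80 to -0.50 on day 6 and from -1.56 to -1.22 on day 28, without overlap, and its shift was -0.81, -0.58, -0.78 and -0.96 within slides 1 to 4. Members of each stage named here fell. At its entry the synthase Hmgcs1 fell by 0.88 on the log2 scale, and at the isoprenoid steps Mvd, Idi1 and Fdps fell by 0.84, 1.33 and 1.79. Fdft1, Sqle and Lss, which build the ring, fell by 0.71, 1.38 and 0.98. Among the enzymes that trim it, Tm7sf2, the sterol C14 reductase, changed most. Its log2 ratio was -0.56, -0.02, -0.45, -0.10 and -0.13 on day 6 and -1.98, -2.48, -2.56, -2.29 and -2.54 on day 28, a fall of 4.35-fold (-2.12 ± 0.16, adjusted p = 1.86e-10; -0.25 ± 0.16 in air). Idi1 fell by 2.51-fold (-1.33 ± 0.13, adjusted p = 4.16e-08) and was at 0.39 ± 0.13 in air (adjusted p = 0.0849).

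Genes of this pathway are controlled by sterol-sensing factors that act beside the CCAAT-binding factor. The letters CCAAT were searched on both strands in the 250 bases before each start in RefSeq's GRCr8 table, where 15 of 18 sterol genes with a listed promoter (83.3%) held at least 1 match, against 34.3% of all 27457 promoters. The sterol element TCACNCCAC had a match in 0 of the 18 and in 0.976% of all. A window of 150 of these 250 bases is shown for the 3 called genes with the smallest p that hold CCAAT, 5′ to 3′ on the gene's strand, with CCAAT or its complement ATTGG in capitals. A match is a description of letters and not a binding site.
Tm7sf2, chr1:212789542-212789691 (- strand): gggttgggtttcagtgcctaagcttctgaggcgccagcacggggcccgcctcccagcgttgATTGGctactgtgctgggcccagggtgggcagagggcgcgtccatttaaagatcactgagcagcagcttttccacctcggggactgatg
Idi1, chr17:66547525-66547674 (- strand): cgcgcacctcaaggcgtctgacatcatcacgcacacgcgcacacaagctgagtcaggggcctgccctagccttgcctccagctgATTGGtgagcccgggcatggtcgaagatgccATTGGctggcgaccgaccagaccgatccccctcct
Fdps, chr2:176804817-176804966 (- strand): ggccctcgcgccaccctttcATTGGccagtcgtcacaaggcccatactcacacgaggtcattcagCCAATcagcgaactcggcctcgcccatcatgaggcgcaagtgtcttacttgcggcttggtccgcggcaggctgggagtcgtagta
Idi1 and Fdps each hold 2 matches in this window and Tm7sf2 holds 1.

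The genes of lipid export and storage were split. Of 21 genes of cholesterol efflux and lipid storage 5 rose and 5 fell, and 3 rose without rats 49 and 54. Abcg1 and Abca1, the pumps that pass cholesterol to lipoproteins, rose by 3.08-fold and 2.12-fold (1.62 ± 0.28 and 1.09 ± 0.29, adjusted p = 0.00027 and 0.0147), and Olr1, a receptor for oxidized LDL, by 2.41-fold (1.27 ± 0.14, adjusted p = 3.48e-07). In air they changed by 0.16, 0.28 and -0.01, and the difference from air was called for Olr1 (adjusted p = 0.000236) but not for Abcg1 (adjusted p = 0.0536) or Abca1 (adjusted p = 0.521). Olr1 stood at -0.44, -0.52, -0.84, -0.50 and -0.24 on day 6 and at 0.70, 0.46, 0.86, 0.87 and 0.92 on day 28, with no overlap. Of 16 genes of fatty acid synthesis 6 fell and none rose, among them the synthase Fasn (-0.77 ± 0.14, adjusted p = 0.000372) and Acss2, which makes acetyl-CoA (-0.74 ± 0.12, adjusted p = 0.000185); 3 fell with median centring.

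Genes of cell division fell at the low dose and not in air. Of 30 measured mitosis genes 17 fell and none rose (median -0.52), none was called in air by limma (median 0.30, 13 higher at an unadjusted p under 0.05), and 13 had a change that differed from air. Cdk1, the kinase that drives entry into mitosis, was at -3.39, -2.89, -3.83, -3.39 and -3.04 on day 6 and at -4.28, -4.20, -4.38, -4.41 and -4.50 on day 28. The highest rat of day 28 lay below the lowest of day 6, and the fall was 2.07-fold (-1.05 ± 0.13, adjusted p = 1.51e-06; 0.36 ± 0.13 in air). Bub1, of the spindle checkpoint, fell by 2.19-fold (-1.13 ± 0.16, adjusted p = 1.96e-05) and cyclin A2, Ccna2, by 2.18-fold (adjusted p = 0.00034). The mean of the list on day 28 was -3.37 to -3.004 in low dose rats and -3.26 to -2.88 in air rats, while on day 6 it was -2.92 to -2.46 and -3.50 to -3.20.

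Of 35 genes of DNA replication 14 fell and none rose (median -0.31), in air 1 rose and none fell, and 9 differed from air; 7 fell with median centring and 22 with the processed signals. Rrm2, a subunit of the enzyme that makes deoxynucleotides, fell by 2.95-fold (-1.56 ± 0.19, adjusted p = 2.21e-06), with its second probe at -0.56 (adjusted p = 0.130 over all probes). Thymidine kinase Tk1 fell by 2.19-fold (-1.13 ± 0.12, adjusted p = 3.05e-07), and Mcm2 and Mcm3 of the replicative helicase by 1.45-fold and 1.48-fold (adjusted p = 0.000443 and 0.000361).

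Promoters of mitotic genes often carry the cell cycle homology region, TTTGAA, downstream of CCAAT. Searched on both strands in the same 250 bases, TTTGAA was found in 12 of 26 mitosis genes with a listed promoter (46.2%) and in 16.03% of all promoters, and CCAAT in 20 of 26 (76.9%) and 34.3%. Of 27 DNA replication genes 1 (3.70%) held TTTGAA. The windows of 150 bases shown are those of the 3 called mitosis genes with the smallest p that hold TTTGAA, which is in capitals.
Cdk1, chr20:19265143-19265292 (+ strand): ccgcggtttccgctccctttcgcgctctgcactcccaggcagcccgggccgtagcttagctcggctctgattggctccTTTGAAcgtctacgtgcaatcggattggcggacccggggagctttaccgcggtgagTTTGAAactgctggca
Ckap2, chr16:76541964-76542113 (+ strand): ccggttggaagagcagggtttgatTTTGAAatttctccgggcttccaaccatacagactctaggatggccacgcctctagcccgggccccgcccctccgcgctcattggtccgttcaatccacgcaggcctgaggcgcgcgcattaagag
Spc25, chr3:74396719-74396868 (- strand): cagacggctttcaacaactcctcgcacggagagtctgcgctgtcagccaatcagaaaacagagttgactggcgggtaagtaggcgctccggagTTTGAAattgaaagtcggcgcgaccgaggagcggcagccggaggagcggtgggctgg
Cdk1 holds TTTGAA 2 times in this window, and Ckap2 and Spc25 hold it 1 time. In Ckap2 it lies upstream and not downstream of the CCAAT match (-126 against -46 from the start). Ckap2, a spindle protein, and Spc25, of the kinetochore, fell by 0.69 and 0.97 on the log2 scale (adjusted p = 0.000381 and 0.00115).

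Interferon response genes fell less evenly. Of 30 measured 8 fell and none rose (median -0.21), none was called in air by limma (median 0.13, 9 higher and 1 lower at an unadjusted p under 0.05), and 2 differed from air. Ifit3, an antiviral protein that binds foreign RNA, was at 2.05, 1.98, 2.40, 3.27 and 3.18 on day 6 and at 1.64, 1.01, 0.53, 1.33 and 1.24 on day 28 (-1.43 ± 0.29, adjusted p = 0.00125). Irf7, the factor that amplifies the response, fell by 2.32-fold (-1.21 ± 0.27, adjusted p = 0.00305). Its rats overlapped, from 1.22 to 2.55 on day 6 and from -0.02 to 1.63 on day 28, and on slide 2 it was higher on day 28 by 0.42. The mean of the list was 1.52 in rat 52, the highest of day 28, and 12 genes fell without that rat, as also without rats 47 and 52. The number that fell was 3 with median centring, 3 without rat 50, 3 with only the low dose arrays in the fit, 5 without rat 51 or 55, and 4 without rat 53 or 54. Isg15, a ubiquitin-like protein, and Usp18, which removes it, fell by 1.05 and 1.03 (adjusted p = 0.0289 and 0.0151).

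The interferon-stimulated response element was searched on both strands as GAAA, any 2 bases and GAAA. It had a match in 14 of 22 genes of this list with a listed promoter (63.6%), in 4 of the 5 such genes that fell and in 3.29% of all promoters. The windows of Ifit3 and Irf7 are given with the match in capitals, which lies on the other strand in both.
Ifit3, chr1:241527176-241527325 (+ strand): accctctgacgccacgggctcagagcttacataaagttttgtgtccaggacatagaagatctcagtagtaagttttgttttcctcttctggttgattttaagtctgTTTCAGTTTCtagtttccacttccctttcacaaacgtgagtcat
Irf7, chr1:205800024-205800173 (- strand): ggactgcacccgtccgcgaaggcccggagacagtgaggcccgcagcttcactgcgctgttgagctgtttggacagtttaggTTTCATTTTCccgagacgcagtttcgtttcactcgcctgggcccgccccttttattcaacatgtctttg
Each window holds 1 match.

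Immediate early genes, which cells switch on within minutes of a stimulus, had the most rises of the 47 lists. Of 26 measured 12 rose and 1 fell (median 0.60), in air 2 fell and none rose (median -0.22), and 6 had a change more positive than in air. The number that rose was 6 with median centring and 7 without rat 51. Egr2, a zinc finger factor, was at -1.99, -2.02, -2.77, -2.56 and -2.50 on day 6 and at -0.98, -1.09, -0.15, -0.91 and -0.63 on day 28, without overlap, and rose by 3.07-fold (1.62 ± 0.23, adjusted p = 2.29e-05; -0.21 ± 0.23 in air). Its mean of day 28 lay above the air rats of that day by 0.77 ± 0.23 (adjusted p = 0.76). The antiproliferative Btg2 rose by 2.21-fold (1.14 ± 0.22, adjusted p = 0.000654), Ier2 by 2.07-fold (adjusted p = 0.000623), the orphan receptor Nr4a1 by 2.44-fold (adjusted p = 0.0292) and Jun, of the AP-1 factor, by 1.88-fold (adjusted p = 0.0196). Atf3 and the matrix protein gene Ccn1 passed narrowly (1.26 ± 0.41 and 1.51 ± 0.48, adjusted p = 0.0407 and 0.0398), and both calls ended without rat 50, 51, 53 or 55 and with median centring, that of Atf3 also without rat 49 or 56 and that of Ccn1 also without rat 54. Nr4a3, of the same receptor family as Nr4a1, was the 1 gene that fell (2.62-fold, -1.39 ± 0.20, adjusted p = 2.17e-05; -0.10 ± 0.20 in air). These genes also respond to handling of the tissue, a part in the result that was not tested. Of 19 p53 targets 5 rose and none fell, namely Btg2, Cdkn1a, Plk3, Bbc3 and Gadd45a (3 with median centring), and the proapoptotic Bbc3 rose in air as well (0.51 ± 0.09 and 0.61 ± 0.09).

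**Figure D3:**
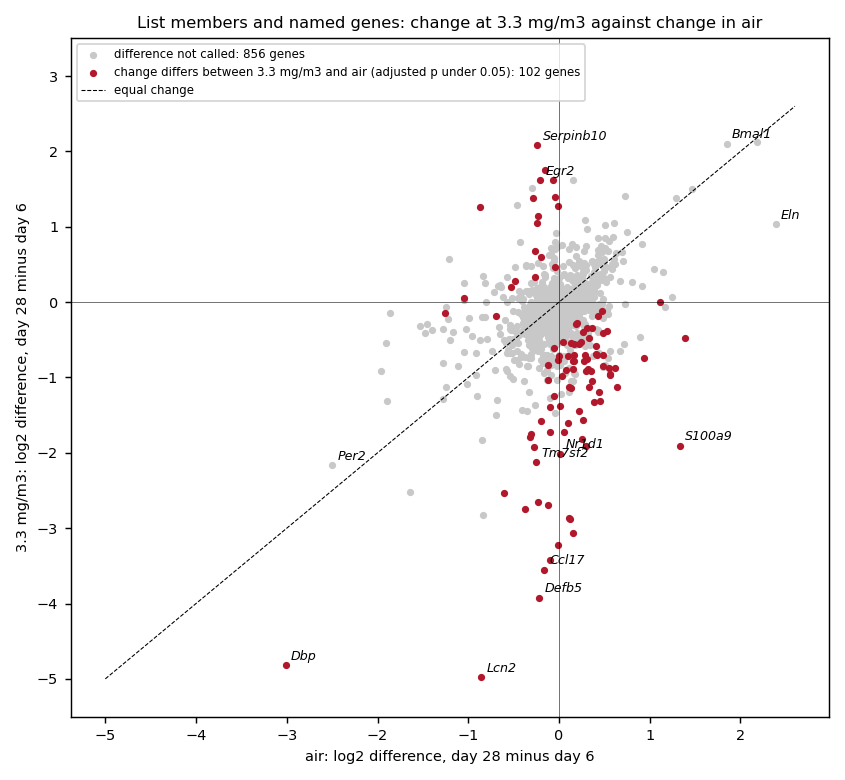
Log2 difference between day 28 and day 6 in low dose rats against that in air rats for the 958 named genes and list members, with the dashed line marking equal change. The change differed for 102 of them (red), against 359 of all 18410 genes (1.95%), and some of the 958 were chosen by that difference. Lcn2, Defb5 and Ccl17 lie far below the line, while Bmal1 and Per2 lie close to it.

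Clock genes moved strongly in both sets of rats. The clock is a loop in which Bmal1 with Clock or Npas2 switches on the Per, Cry and Nr1d genes and the output factors Dbp and Tef, whose products feed back. Of 16 measured clock genes 4 rose and 8 fell at the low dose, and 4 rose and 7 fell in air. Bmal1 was at -1.72, -1.65, -1.71, -1.19 and -1.43 on day 6 and at 0.71, 0.57, 0.32, 0.61 and 0.60 on day 28. It rose by 4.29-fold (2.10 ± 0.16, adjusted p = 1.58e-10), and by 1.85 ± 0.16 in air (adjusted p = 6.74e-09). Npas2 rose by 2.12 ± 0.16 and 2.18 ± 0.16, although its second probe gave 0.11 (adjusted p = 0.370 over all probes). Per2 fell by 4.49-fold (-2.17 ± 0.15, adjusted p = 2.33e-11), and by 2.50 on the log2 scale in air. For these 3 genes the difference between both changes was 0.25 ± 0.22, -0.06 ± 0.22 and 0.33 ± 0.21 (adjusted p = 0.822, 0.985 and 0.674).

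For 3 of the 16 clock genes, Dbp, Nr1d1 and Cry1, the change differed from that in air. Dbp, an output factor, was at 2.42, 2.48, 2.84, 2.07 and 2.40 on day 6 and at -2.34, -2.24, -2.42, -2.40 and -2.48 on day 28 of the low dose, a fall of 28.2-fold (-4.82 ± 0.23, adjusted p = 5.81e-15). In air it fell from 2.98, 2.72, 2.84, 2.26 and 2.58 to -0.58, -0.69, -0.66, -0.28 and 0.52 (-3.01 ± 0.23, adjusted p = 4.86e-10). The low dose rats of day 28 all lay below the air rats of day 28. Its 2 other probes fell by 3.74 and 3.93 at the low dose. Nr1d1, the repressor Rev-erb alpha, was at 1.18, 1.17, 1.46, 1.19 and 1.19 and -0.67, -0.97, -0.74, -0.71 and -0.79 at the low dose and at 1.32, 1.36, 1.01, 0.67 and 1.23 and 1.06, 1.02, 1.08, 0.92 and 1.58 in air. Only the low dose rats of day 28 stood low. The fall was 4.03-fold (-2.01 ± 0.19, adjusted p = 1.48e-08) against 0.01 ± 0.19 in air, and the difference was -2.03 ± 0.26 (adjusted p = 1.74e-05; -1.80 ± 0.32, adjusted p = 0.000971 for Dbp). These are the 2 genes in which low dose and air rats differed on day 28, by -2.04 ± 0.23 for Dbp and -1.91 ± 0.19 for Nr1d1 (adjusted p = 8.39e-06 and 1.03e-06). Nr1d2, the related repressor, fell at the low dose (-0.84 ± 0.15, adjusted p = 0.000364) and was at -0.34 ± 0.15 in air (adjusted p = 0.173). Cry1 fell in air (-1.05 ± 0.10, adjusted p = 1.39e-07) and was at 0.06 ± 0.10 at the low dose, a difference of 1.1 ± 0.14 (adjusted p = 2.06e-05). No source used here gives the hour at which each rat was killed, and hour and group cannot be told apart.

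The E-box CACGTG, which the Bmal1 complex binds, was searched on both strands in the 250 bases before the start. It was found in 3 of 15 clock genes, each of which fell (Ciart, Tef and Bhlhe40), and in 5.80% of all promoters. The element GTAGGTCA, bound by the Nr1d repressors and by ROR activators, was found in Bmal1 alone of the 15, and in 0.503% of all promoters. Windows of 150 bases of Tef, Ciart and Bmal1 are shown with these letters in capitals.
Tef, chr7:115206619-115206768 (+ strand): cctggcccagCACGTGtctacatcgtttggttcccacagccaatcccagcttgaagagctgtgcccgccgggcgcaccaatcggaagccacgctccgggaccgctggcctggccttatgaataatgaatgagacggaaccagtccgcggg
Ciart, chr2:186112247-186112396 (- strand): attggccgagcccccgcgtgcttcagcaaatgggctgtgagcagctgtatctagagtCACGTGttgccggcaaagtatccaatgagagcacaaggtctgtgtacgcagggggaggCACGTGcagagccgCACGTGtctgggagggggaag
Bmal1, chr1:176766178-176766327 (+ strand): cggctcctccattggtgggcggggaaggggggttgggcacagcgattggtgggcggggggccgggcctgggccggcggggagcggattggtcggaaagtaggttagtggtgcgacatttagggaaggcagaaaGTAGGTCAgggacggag
Tef holds 1 E-box in its window and fell by 1.24 at the low dose and by 0.90 in air on the log2 scale. Ciart, a repressor of the loop, holds 3. It was not well above background on any array of day 28, at least 1.28-fold lower at the low dose and at least 1.29-fold lower in air. Bmal1 holds the ROR element 1 time.

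**Figure D4:**
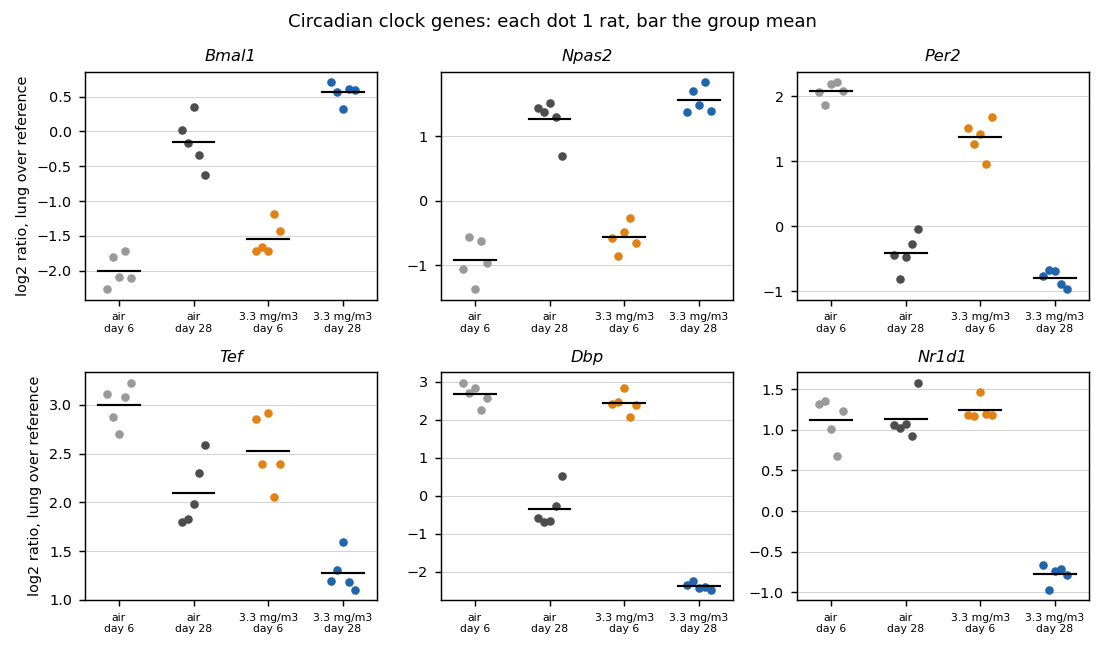
Log2 ratio of 6 clock genes in each of 5 rats per group, with the group mean as a bar. Bmal1 and Npas2 are higher and Per2, Tef and Dbp lower on day 28 in both air and low dose rats, whereas Nr1d1 is low only in the low dose rats of day 28.

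Other genes moved in the same direction with time in exposed and unexposed rats, with no call for the difference. Of 15 erythroid genes 6 rose at the low dose (3 without rat 48, 54 or 55, each left out alone) and 2 in air, with medians of 0.44 and 0.49, and none differed between the changes. The hemoglobin gene Hbb-bs rose by 1.38 ± 0.28 at the low dose and 1.28 ± 0.28 in air (adjusted p = 0.00129 and 0.0104). Hemoglobin genes with near-identical copies share probes, so the member is uncertain. The red cell regulator Tal1 rose by 0.72 ± 0.15 at the low dose and was at 0.50 ± 0.15 in air (adjusted p = 0.0633), while its second probe gave 0.00. Spon2, a matrix protein, rose by 1.5 ± 0.27 and 1.46 ± 0.27. Pdgfra, the receptor that marks lung fibroblasts, rose by 0.94 ± 0.14 and 0.75 ± 0.14, and Aldoc, a glycolytic enzyme, fell by 0.97 and 0.91. The hormone Adm, adrenomedullin, rose by 1.41 ± 0.17 and 0.72 ± 0.17 (adjusted p = 1.06e-06 and 0.0169; difference 0.69 ± 0.24, adjusted p = 0.175). Elastin, Eln, rose in both, by 1.03 ± 0.27 at the low dose and 2.39 ± 0.27 in air (adjusted p = 0.0113 and 1.43e-06), and the difference of -1.35 ± 0.38 was not called (adjusted p = 0.0585).

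**Figure D5:**
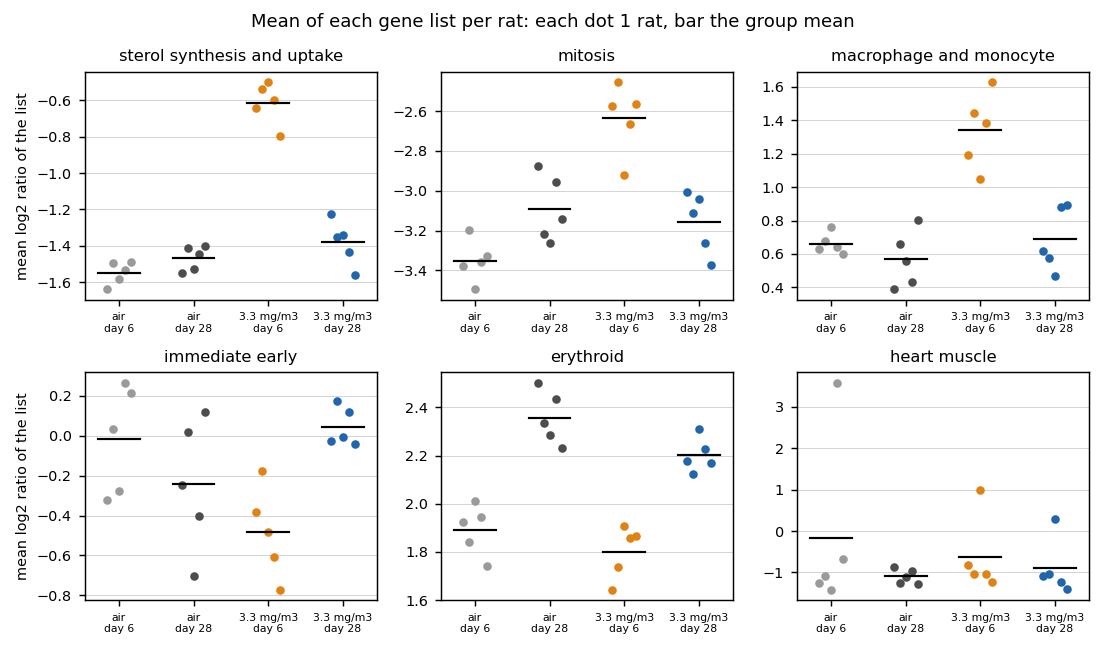
Mean log2 ratio of 6 gene lists in each of 5 rats per group, with the group mean as a bar. Sterol and macrophage genes are higher in each low dose rat of day 6 than in any rat of the other 3 groups, erythroid genes are higher on day 28 in air and low dose alike, and heart muscle genes are high in single rats.

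Metal and stress genes changed for a minority. Of 25 metallothionein and metal handling genes 5 fell and 1 rose. Mt1, a cysteine-rich protein that holds zinc and copper, was at -0.52, -0.41, -0.68, -0.45 and -0.14 on day 6 and at -2.26, -2.21, -1.68, -2.02 and -1.48 on day 28 (-1.49 ± 0.22, adjusted p = 2.84e-05), against -0.70 ± 0.22 in air (adjusted p = 0.0726), a difference that was not called (-0.79 ± 0.31, adjusted p = 0.285). Mt2A fell by as much in air (-1.28 ± 0.30) as at the low dose (-1.29 ± 0.30) by its brightest probe. A second Mt2A probe gave -0.55 in air and -0.78 at the low dose. The copper pump Atp7a rose by 0.33 (adjusted p = 0.039), and the zinc exporter Slc30a1 was at 0.11 ± 0.09 (adjusted p = 0.503). Of 34 targets of the oxidant-sensing factor Nrf2 6 fell and none rose, against 4 that fell in air. The count at the low dose was 1 with median centring and 3 without rat 48 or rat 54. Slc7a11, the cystine importer, fell by 3.51-fold (-1.81 ± 0.27, adjusted p = 4.04e-05) with 0.25 ± 0.27 in air, and heme oxygenase Hmox1 by 2.04-fold (-1.03 ± 0.29, adjusted p = 0.0206), a call that ended without rat 48 or 54 and with median centring. Of 22 iron and heme genes 9 fell and 1 rose, and 2 fell with median centring. Beside Lcn2, Hp and Hmox1, the transferrin receptor Tfrc fell by 1.55-fold (adjusted p = 0.000221).

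Over all genes 7.96% fell and 3.94% rose, and the counts for genes of the lysosome, the matrix and ion transport stand beside those shares. Of 32 lysosomal genes 7 fell and none rose (3 fell with median centring), among them the proteases Ctsh and Ctsc (-1.45 ± 0.29 and -0.61 ± 0.10, adjusted p = 0.00134 and 0.000134). Of 25 matrix proteases and inhibitors 4 fell and 1 rose. Mmp7, matrilysin, was at least 2.99-fold lower in Cy5 on day 28 (2.76-fold by the log ratios), where its signal was not well above background, and the inhibitor Timp1 fell by 1.86-fold (-0.90 ± 0.18, adjusted p = 0.00127). Of these 25 genes the change differed from air for 1, Mmp12, and not for Timp1. Of 31 matrix genes 4 fell and 2 rose, a balance close to that over all genes. Cthrc1, a secreted protein of injured tissue, fell by 2.98-fold (-1.58 ± 0.24, adjusted p = 3.3e-05) and Tgfbi by 2.06-fold (adjusted p = 4.43e-05). The difference from the air change was called for Cthrc1 but not for Tgfbi. Collagen Col1a1 stood at 0.06 ± 0.26 at the low dose and rose by 1.24 ± 0.26 in air, but the difference between both changes was not called. A second Col1a1 probe gave 0.07 at the low dose and 0.33 in air. Slc26a4, the anion exchanger pendrin of airway epithelium, was at 2.95, 3.02, 3.03, 3.34 and 3.23 on day 6 and at 0.46, 0.65, 0.14, 0.66 and 0.43 on day 28 (6.27-fold lower, -2.65 ± 0.13, adjusted p = 2.19e-14). The chloride channel Cftr fell by 2.28-fold (adjusted p = 0.00505). Tac1, which encodes substance P, rose from -0.19, 0.13, -0.76, -0.71 and 0.58 to 1.64, 2.02, 1.63, 0.67 and 1.85 (1.75 ± 0.30, adjusted p = 0.000172), but its second probe gave 0.45 (adjusted p = 0.0550 over all probes).

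Markers of the resident structural cells were called in both directions, beside 3.94% higher and 7.96% lower over all genes. A count of 1 in 1 of these lists lies near those shares. Of 23 markers of alveolar type I cells, which form the gas-exchange surface, 4 rose and none fell, among them Cav1 and Cavin2 of caveolae (0.47 and 0.74, adjusted p = 0.0292 and 0.024). No type I marker rose without rat 54 or with median centring, 1 did without rat 48 and 2 did without rat 49 or 51, whereas 7 did with Cy5 alone. Ager, the receptor most typical of these cells, was at 0.07 ± 0.10 (adjusted p = 0.684). Of 23 markers of surfactant-making type II cells 3 fell and 1 rose. With Cy5 alone 8 fell, and the list's median of -0.17 turned to 0.01 with the processed signals. The surfactant genes Sftpc and Sftpd were at 0.10 ± 0.24 and -0.17 ± 0.17 (adjusted p = 0.828 and 0.549). Of 25 endothelial markers 3 rose, and none did with median centring or without rat 48, 51 or 54, and 1 did without rat 55, whereas 5 did with Cy5 alone or the processed signals. Of 17 club and goblet cell markers 5 fell, among them Bpifb1 and Hp, 3 without rat 54 and 4 without rat 49, while the secretoglobin Scgb1a1 was at 0.30 ± 0.14 (adjusted p = 0.16). In rat 49 of day 6 the mean of this list was 2.66, the highest of the low dose rats, and the highest air rat of day 6 stood at 3.04. Of 15 ciliated cell markers Tekt2 fell (-0.78 ± 0.12, adjusted p = 3.8e-05), and of 23 basal and injured epithelium genes 1 rose. Of 21 fibroblast and smooth muscle markers 2 rose and 1 fell, the pericyte receptor Notch3 (-0.70 ± 0.15, adjusted p = 0.00194). In air 2 of these markers rose and 1 fell as well, and none had a change that differed from air. Also in air 1 type II and 1 endothelial marker rose, and no member of the other structural lists was called. No type I or endothelial marker had a change that differed from air. The change did differ for 2 type II, 1 club and goblet, 1 ciliated and 1 basal marker.

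On day 28 limma called 2 genes between the low dose and the air rats of the same day, Dbp and Nr1d1. The difference from air of that day was 0.15 ± 0.33 for Lcn2, 0.01 ± 0.15 for Ccl17, 0.15 ± 0.17 for Mmp12, 0.06 ± 0.20 for C3, 0.10 ± 0.16 for Tm7sf2, 0.03 ± 0.13 for Idi1 and -0.09 ± 0.13 for Cdk1 (adjusted p between 0.826 and 0.987). None of these passed, which does not show that the groups were equal. The median SE of the low dose change was 0.115 over all genes. List medians of the difference on day 28 were 0.10 for sterol synthesis, -0.10 for mitosis, 0.04 for acute phase genes, 0.15 for macrophage markers, -0.01 for chemokines, 0.22 for immediate early genes and -0.20 for interferon response genes. No gene of these 7 lists was called by limma. At an unadjusted p under 0.05, 6 immediate early, 4 macrophage, 3 sterol and 2 chemokine genes were higher than in air, and 7 of 30 interferon response genes and 1 macrophage gene were lower. On day 6 the medians were 0.95, 0.64, 0.74, 0.59, 0.34, -0.54 and 0.20. The differences of both days share the rats of this comparison and are given side by side only.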

How the data were processed

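Lung RNA of 30 rats (200 ng each, RNA integrity number above 7, per the labels' protocols) was hybridised as Cy5 against a common Cy3 reference on 4 slides of 2-colour arrays, 1 array a rat. The labels name the reference once as rat and once as mouse RNA, and which it was is not known. The levels given are ratios to this reference, while differences between groups compare arrays that share it. Per the file headers, the authors scanned the arrays with Agilent Feature Extraction 11.0.1.1, and the spot intensities they deposited are median pixel values with local background, processed intensities corrected for background and dye, and flags coded as other values. Their deposited table of log2 ratios correlated at 0.997 to 1.000 with ratios computed here without background correction, which gives its direction as Cy5 over Cy3, and its column medians lay between -0.0314 and -0.00539.

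Here median intensities were background-corrected (normexp, offset 50) and loess-normalized within arrays, with weight 0 for the 4259 control spots of 62976 and for outlier spots. Probes well above background in Cy5 on at least 5 of 30 arrays were kept (20839 of 30367). The brightest probe stood for a gene (18410 genes, 11322 with a symbol from RefSeq, GRCr8). One limma fit (R 4.3.3, limma 3.58.1) over 6 groups gave all contrasts, with Benjamini-Hochberg adjusted p under 0.05 over all genes as threshold. The fit was tested on simulated data with known changes.

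The comparison, the 47 gene lists and the named genes' rule were chosen with earlier results of these data known. That rule took the 12 largest falls and rises among called genes whose rats did not overlap, the 6 most negative and 6 most positive differences from the air change, the 2 members of smallest p of each list and a fixed panel. Other members were named as examples of their lists after their values were seen. Alternatives covered samples in the fit, slide, background, scaling, the authors' table, dim probes, probe averaging, a robust fit, a fold threshold and each rat left out. Leaving out rats 47 and 52, or 49 and 54, was added after seeing the data. Rats are separate animals, and 5 a group limit the precision. A few list members that were tested and counted are not reported here by name.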

Additional observations from a re-analysis of the deposited data

Results flagged for a closer look

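The change between the days differed between low dose and air rats, by the test of the difference itself, for 359 genes. Among the genes named by the rule 47 did so, and the values given for 46 of them are the low dose change minus the air change on the log2 scale, limma with n = 5 rats per group. For all other genes named by the rule, among them Bpifb1, Fabp4, Timp1 and Tgfbi, that difference was not called. Among defence, acute phase and complement genes the difference was -4.12 for Lcn2, -3.70 for Defb5, -2.57 for Orm1, -2.37 for C3, -1.94 for Chi3l1, -3.24 for S100a9, -1.87 for S100a8, -1.67 for Hp and -1.44 for Cfi. Among chemokines and immune receptors the difference was -3.38 for Ccl17, -3.22 for Ccl2, -3.21 for Ccl22, -2.999 for Ccl12, -2.98 for Ccl7, -1.78 for Cxcl10, -1.62 for Cxcl1, -2.20 for Il1r2 and -0.92 for Clec9a. Among macrophage, protease and matrix genes the difference was -3.33 for Mmp12, -1.71 for Spp1, -1.37 for Cthrc1 and -0.56 for Ctsc. Among lipid synthesis genes the difference was -1.87 for Tm7sf2, -1.71 for Idi1 and -0.76 for Fasn. Among cell division genes the difference was -1.83 for Rrm2, -1.46 for Tk1, -1.41 for Cdk1 and -1.27 for Bub1. Among clock genes the difference was -2.03 for Nr1d1 and -1.80 for Dbp. It was also negative for Slc26a4 (-2.42), Slc7a11 (-2.07), Nr4a3 (-1.29), Tekt2 (-1.06) and Tnni2 (-0.95). It was positive for Serpinb10 (2.32), Atf3 (2.13), Tac1 (1.90), Egr2 (1.83), Pparg (1.68), Clec7a (1.67), Pla2g2d (1.44), Btg2 (1.37), Olr1 (1.28) and Hbegf (0.60). The difference was not called in 16 of 33 alternatives with a test for Atf3, in 16 for Fasn, 14 for Clec7a, 13 for Ctsc and 9 for Cfi. The value of Orm1 is not an exact difference, since its signal was not well above background on any array of 3 of the 4 groups.

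A single rat stood apart from the other 4 of its low dose group in 26 of 326 groups checked (its gap to the nearest rat over 0.71 of the range), where chance flags about 1 in 20, or 16.3. In rat 48 of day 6 the log2 ratio was 1.52 for Defb5, -0.18 for Blvrb, -2.75 for Mcpt9, 1.98 for S100a8 and -0.95 for the mean of the list mast cell and eosinophil. In rat 49 of day 6 the log2 ratio was 2.27 for Cox6a2, 1.46 for Nr1d1, 0.53 for the mean of the list adipose, 2.66 for the mean of the list club and goblet and 1.00 for the mean of the list heart muscle. In rat 50 of day 6 the log2 ratio was 5.22 for Ccl12 and 1.39 for the mean of the list chemokines. In rat 52 of day 28 the log2 ratio was 0.92 for Hgf, -1.65 for Acss2, -0.0318 for the mean of the list fatty acid synthesis, 1.52 for the mean of the list interferon response and -0.32 for the mean of the list p53 targets. In rat 53 of day 28 the log2 ratio was -3.05 for Ccl2. In rat 54 of day 28 the log2 ratio was 0.63 for RT1-DMa, 1.64 for Ctsc, 1.55 for Tal1, 3.95 for Napsa, -0.86 for Hbegf, 0.49 for Cox6a2 and 0.29 for the mean of the list heart muscle. In rat 55 of day 28 the log2 ratio was 0.67 for Tac1. Rat 54 gave 7 of these values, and rats 48, 49 and 52 gave 5 each.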

How the results depend on the processing

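Direction and call were kept under every alternative with a test for 74 of the 92 called genes named by the rule and for 30 of their 47 differences from air, and none reversed in such an alternative. Calls numbered 2191 at the low dose, 541 in air and 359 for the difference. With median centring there were 749, 126 and 159, and the median of all genes stood at -0.11 in air and 0.15 for the difference, against 0.01 and -0.02 with loess. At least 1.5-fold were 738 at the low dose and 206 in air. With only the low dose arrays in the fit 1542 were called at the low dose, and with only the air arrays 1162 were called in air. Leaving out 1 rat gave 1209 to 2904 calls at the low dose (1225 without rat 48, 1331 without rat 51, 1209 without rat 54), 180 to 2494 in air (2494 without rat 8) and 279 to 426 for the difference. Without rats 47 and 52 there were 3362 calls at the low dose, and without rats 49 and 54 there were 1297. On slide 2, with 1 rat a day and no test, Cd5 (0.0269), Cox5b (0.00981), Gja5 (-0.0240) and Irf7 (0.42) ran against their overall direction, as did Gja5 on slide 3 (-0.0892). The cause of these shifts was not tested. No paired analysis was possible because each rat number occurs in 1 group only. Genes not well above background on a whole group have only a bound.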

Other observations

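The low dose counts of the lists below stand beside 7.96% lower and 3.94% higher over all genes. Of 28 measured eicosanoid genes, which make and sense leukotrienes and prostaglandins, 4 rose and none fell at the low dose (median -0.02), and 1 had a change that differed from air. None was called in air by limma, with 2 higher and 1 lower at an unadjusted p under 0.05. With Cy5 alone, or without rats 47 and 52, 2 members fell. Besides Pla2g2d these were Alox5 (0.77), the enzyme that starts leukotriene synthesis, Ltc4s (0.75), which makes leukotriene C4, and Alox15 (0.62). Of 30 glycolysis and hypoxia genes 5 fell and 2 rose, and 3 fell and 1 rose with median centring. Hk3, the hexokinase of myeloid cells, fell by 1.27 on the log2 scale, Slc16a3, a lactate exporter, by 0.58, and the growth factor Vegfa rose by 0.68, a call that ended without rat 48, 51 or 54. Of 19 neuropeptide and ion transport genes 3 fell and 1 rose, among them Scnn1b, a subunit of the sodium channel of airway epithelium, which fell by 0.57.

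Of 26 respiratory chain genes 4 fell at the low dose and 1 in air, with medians of -0.25 and -0.31. None fell with median centring, 1 did without rat 48, 51 or 54, 7 without rat 52 and 9 without rats 47 and 52. Of 26 unfolded protein and heat shock genes 3 fell and 2 rose, none was called with median centring, and 6 fell without rats 47 and 52. Of 28 xenobiotic metabolism genes 3 fell and 1 rose, 1 fell without rat 48, 51, 53 or 54, none fell with median centring, and 4 rose with Cy5 alone. In air 4 of the xenobiotic genes fell and none rose, and 2 had a low dose change more positive than that in air. The counts of the unfolded protein and xenobiotic lists lie near the shares over all genes. Of 14 adipose and 13 skeletal muscle markers 1 each fell, Fabp4 and Tnni2. None of 11 platelet and 9 mesothelial markers was called by limma at the low dose, with 2 and 0 higher and 1 and 0 lower at an unadjusted p under 0.05.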
